A study of Homo sapiens with 12 samples.

Results

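Collagens, laminins and integrins are the main fibres, sheets and receptors through which cells hold on to the extracellular matrix. Collagen chains wind into triple helices that form fibrils or networks, laminins are cross-shaped trimers of an alpha, a beta and a gamma chain that build basement membranes with collagen IV, and integrins are receptors of an alpha and a beta subunit that bind these proteins at the cell surface. In the germ line, migrating primordial germ cells and the tumours that arise from their descendants sit on such matrix. SOX17 and SOX2 are related transcription factors that bind a short SOX motif, often next to an OCT motif read by OCT4 (POU5F1). SOX17 is known for its role in human germ cell fate, and SOX2 for its role in pluripotency.

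Chromatin immunoprecipitation followed by sequencing (ChIP-seq) recorded the binding of each factor in 1 human germ cell tumour line: SOX17 in TCam-2, a seminoma-like line, and SOX2 in 2102EP, an embryonal carcinoma-like line. There were 3 biological replicates of SOX17 ChIP in TCam-2, 3 of SOX2 ChIP in 2102EP, 3 libraries of 2% input of TCam-2 and 3 of 2% input of 2102EP, and no treatment or genetic change is named for any of these 4 groups. The authors deposited 1 merged list of annotated peaks for each factor, 17507 peaks for SOX17 and 17795 for SOX2, with no value for a single library, so no value below has a replicate error and read depth is unknown. Factor, antibody and cell line changed together and cannot be told apart, and each line stands for 1 tumour.

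The genes were chosen by name: peaks whose nearest gene, in the deposited annotation, is a collagen chain, a laminin chain or a gene whose symbol begins as an integrin subunit's does. These were 51 of the 12911 genes named in either list, with 77 SOX17 peaks and 56 SOX2 peaks. RefSeq holds 86 protein-coding genes with such names: 44 collagen chains, 12 laminin chains, 26 integrin subunits and 4 that match by name but encode no subunit (ITGB1BP1, ITGB1BP2, ITGB3BP and ITGBL1). Nearest means the closest transcription start site (TSS), at any distance, and does not show that a factor acts on the gene. The files hold no expression values, so whether the genes are active in either line, and the identity of the lines, could not be checked.

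The sequences of the peaks that the results below turn on are given here, from hg38. The first set shows the SOX17 peaks that held a compressed SOX-OCT site, in which a SOX site is joined to an OCT site with no base between them. Both sites lie on the minus strand, which is printed, and capitals mark the composite site. The regions are chr13:110297225-110297328 in an intron of COL4A1, chr18:23859894-23860006 in an intron of LAMA3 and chr3:130557187-130557315 at COL6A6. The last lies inside the COL6A6 gene, but 3083 bp upstream of the TSS used by the deposited annotation, which calls it intergenic.
COL4A1: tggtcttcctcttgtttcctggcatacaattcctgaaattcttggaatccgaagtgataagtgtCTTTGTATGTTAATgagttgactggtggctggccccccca
LAMA3: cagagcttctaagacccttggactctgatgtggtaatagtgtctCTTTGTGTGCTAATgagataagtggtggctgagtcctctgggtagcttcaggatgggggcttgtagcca
COL6A6: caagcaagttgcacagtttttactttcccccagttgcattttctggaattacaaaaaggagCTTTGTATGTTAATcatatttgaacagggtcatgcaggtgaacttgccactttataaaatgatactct

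The second set shows the SOX17 peaks of the regions that stood at or above percentile 90 of both lists, on the plus strand. Capitals mark SOX sites (CATTGT or CTTTGT on either strand) and, in LAMA2, also an OCT site (ATGCAAAT or ATGCTAAT on either strand). They are chr10:104076850-104076961 in an intron of COL17A1, chr6:128744104-128744216 upstream of LAMA2 and chr3:124889139-124889269 in an intron of ITGB5 close to an annotated TSS.
COL17A1: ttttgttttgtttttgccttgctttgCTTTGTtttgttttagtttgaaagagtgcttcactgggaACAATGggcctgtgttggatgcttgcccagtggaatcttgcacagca
LAMA2: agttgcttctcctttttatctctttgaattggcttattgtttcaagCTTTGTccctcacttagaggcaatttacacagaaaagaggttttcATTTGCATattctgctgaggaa
ITGB5: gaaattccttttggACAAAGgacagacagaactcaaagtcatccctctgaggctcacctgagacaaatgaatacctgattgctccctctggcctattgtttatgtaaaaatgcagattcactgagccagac

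The third set shows peaks that were high in 1 list and lower or absent at that place in the other, on the plus strand with SOX sites in capitals. They are the SOX17 peaks chr2:172308508-172308633 upstream of ITGA6 and chr3:37493220-37493327 in an intron of ITGA9, and the SOX2 peak chrX:108426402-108426518 in an intron of COL4A6.
ITGA6: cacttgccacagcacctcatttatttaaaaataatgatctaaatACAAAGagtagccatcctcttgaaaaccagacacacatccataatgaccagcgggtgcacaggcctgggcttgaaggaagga
ITGA9: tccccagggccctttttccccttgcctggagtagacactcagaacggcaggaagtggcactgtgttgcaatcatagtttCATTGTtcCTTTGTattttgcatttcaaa
COL4A6: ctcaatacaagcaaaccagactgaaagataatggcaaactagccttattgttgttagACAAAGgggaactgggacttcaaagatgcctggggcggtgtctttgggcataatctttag

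Of the 86 genes, 37 were the nearest gene of a SOX17 peak (43.0%) and 35 of a SOX2 peak (40.7%), against 33.5% and 31.5% of all 20037 protein-coding genes. Both lists named 21 of the genes (24.4%, against 20.9% of all protein-coding genes). The counts moved with distance: with peaks limited to 50000 bp from the TSS, 30 genes had a SOX17 peak (34.9%), 22 a SOX2 peak (25.6%) and 12 both (14%), against 27.2%, 25.5% and 14.3% of all protein-coding genes. SOX17 alone named 16 (18.6% against 12.6%), SOX2 alone named 14 (16.3% against 10.6%), and 35 had no peak in either list. At any distance a peak of either list stood by 51 of the 86 (59.3%, against 44.1% of all protein-coding genes): 26 of 44 collagens, 7 of 12 laminins, 16 of 26 integrin subunits and 2 of the 4 that encode no subunit.

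Gene length moved with these counts, and its part in them was not tested. The median length of the 86 genes was 89282.5 bp, against 24115 bp over all protein-coding genes, and members with a peak were longer (median 135632 bp) than members without one (41621 bp). Among genes of 50000 bp or more, 32 of 60 members had a SOX17 peak and 32 had a SOX2 peak (53.3% each), against 53.2% and 50.8% of all 6269 such genes. Among shorter genes the shares were 19.2% (5 of 26) for SOX17 and 11.5% (3 of 26) for SOX2, against 24.5% and 22.7% of all 13768. All 21 genes named by both lists were among the 60 long ones (35.0%, against 37.4% of all long genes). Other limits gave another order: under 200000 bp, 38.8% of 67 members had a SOX17 peak and 34.3% a SOX2 peak, against 30.6% and 28.5% of all such genes, and from 200000 bp on 57.9% and 63.2% of 19 members did, against 72.6% and 71.7%. Across the 86 genes, length and the number of peaks had a Spearman correlation of 0.38 for SOX17 and 0.40 for SOX2, given as a description since the points share 1 list.

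**Figure D1:**
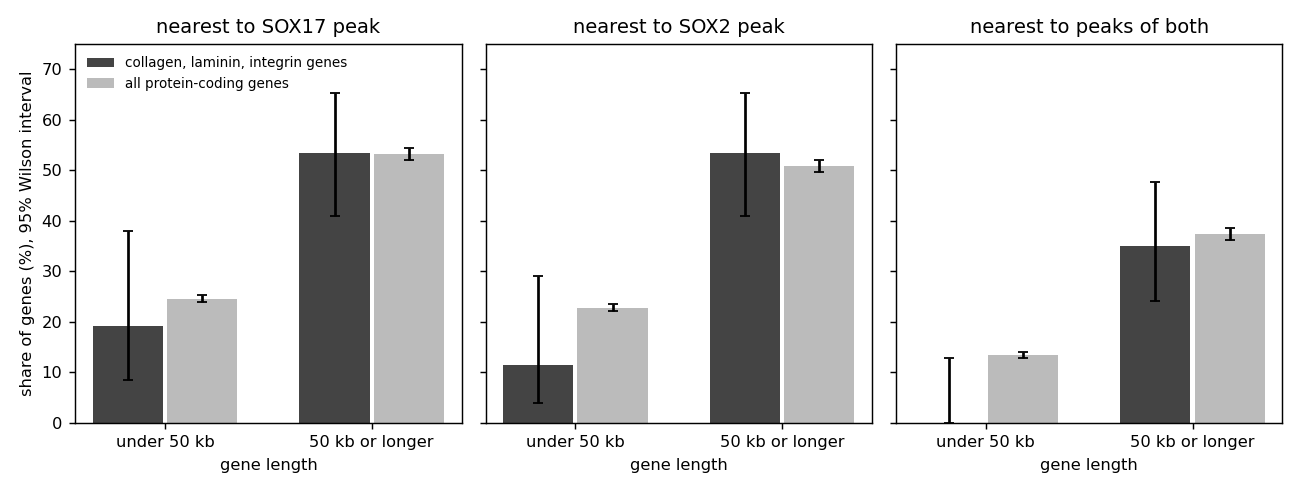
Share of genes (%) nearest to a SOX17 peak, a SOX2 peak or peaks of both, for genes under 50 kb and of 50 kb or longer. Dark bars are the collagen, laminin and integrin genes (26 short, 60 long), light bars all protein-coding genes, and lines 95% Wilson intervals; among long genes dark and light bars stand at like heights (53.3% against 53.2% for SOX17), and among short genes no member had peaks of both lists.

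Within the collagens, SOX17 peaks stood by 21 of 44 genes (50 peaks) and SOX2 peaks by 18 (27 peaks), with 13 in both. These were 47.7% and 40.9% of the collagens, and 59.4% and 53.1% of the 32 of 50000 bp or more, against 53.2% and 50.8% of all genes of that length. All 4 transmembrane collagens had a SOX17 peak and 3 had a SOX2 peak, and both multiplexins, the basement membrane collagens COL15A1 and COL18A1, had peaks of both factors. Each of these transmembrane and multiplexin genes is longer than 50000 bp, the class with those shares of 53.2% and 50.8% over all genes. Of the 11 fibrillar collagens 3 had a SOX17 peak and 3 a SOX2 peak, and 6 had neither, among them COL1A1 and COL3A1, major chains of connective tissue. The collagen IV genes, which form the network of basement membranes, had SOX17 peaks at 3 of 6 and SOX2 peaks at 2 of 6. The fibril-associated collagens had SOX17 peaks at 4 of 10 and SOX2 peaks at 4 of 10. These counts are small and stand beside the same backgrounds, with 33.5% for SOX17 and 31.5% for SOX2 over all protein-coding genes. No difference between roles was tested.

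Among laminins, SOX17 peaks stood by 7 of 12 genes and SOX2 peaks by 4, with 11 peaks each. These were 58.3% and 33.3% of the laminins, against 33.5% and 31.5% of all protein-coding genes, and 60% and 40% of the 10 laminins of 50000 bp or more, against 53.2% and 50.8%. All 4 laminin genes with a SOX2 peak also had a SOX17 peak (LAMA2, LAMA3, LAMB1 and LAMB4). SOX17 alone stood by LAMA4, LAMB2 and LAMC1, and no gamma chain gene had a SOX2 peak. LAMC1, the gamma chain of most laminins, had 1 SOX17 peak at percentile 83.0, in intron 1 and 4492 bp from its TSS.

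Among integrins, SOX17 peaks stood by 9 of 26 subunit genes and SOX2 peaks by 11, with 16 peaks each and 4 genes in both: ITGA6, ITGA9, ITGB1 and ITGB5. The shares were 34.6% for SOX17 and 42.3% for SOX2, against 33.5% and 31.5% of all protein-coding genes, and 43.8% and 62.5% of the 16 subunit genes of 50000 bp or more, against 53.2% and 50.8%. Of the 18 alpha subunits 4 had a SOX17 peak and 7 a SOX2 peak, and of the 8 beta subunits 5 and 4 did. ITGA5, the alpha subunit of the main fibronectin receptor, had no peak in either list. ITGAV, the partner of several beta subunits in receptors of the RGD motif, had a single SOX2 peak at percentile 15.4 of that list, 20029 bp upstream.

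The authors' peak score was used as a percentile, the rank of a peak within its own list, with 100 the highest. The 77 SOX17 peaks had a median percentile of 57.6 and the 56 SOX2 peaks a median of 53.2, against 49.96 and 49.98 over the whole lists by construction. At or above percentile 90 stood 13 of the 77 SOX17 peaks (16.9%, 95% Wilson interval 10.1 to 26.8%), against 9.96% of the whole list, and 7 of the 56 SOX2 peaks (12.5%, 6.19 to 23.6%), against 10% of the whole list. The nearest values below that limit were 89.99 for SOX17, at COL18A1, and 85.6 for SOX2, at COL14A1. Intervals cover counting only and treat peaks as independent, although peaks of 1 gene share a locus.

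**Figure D2:**
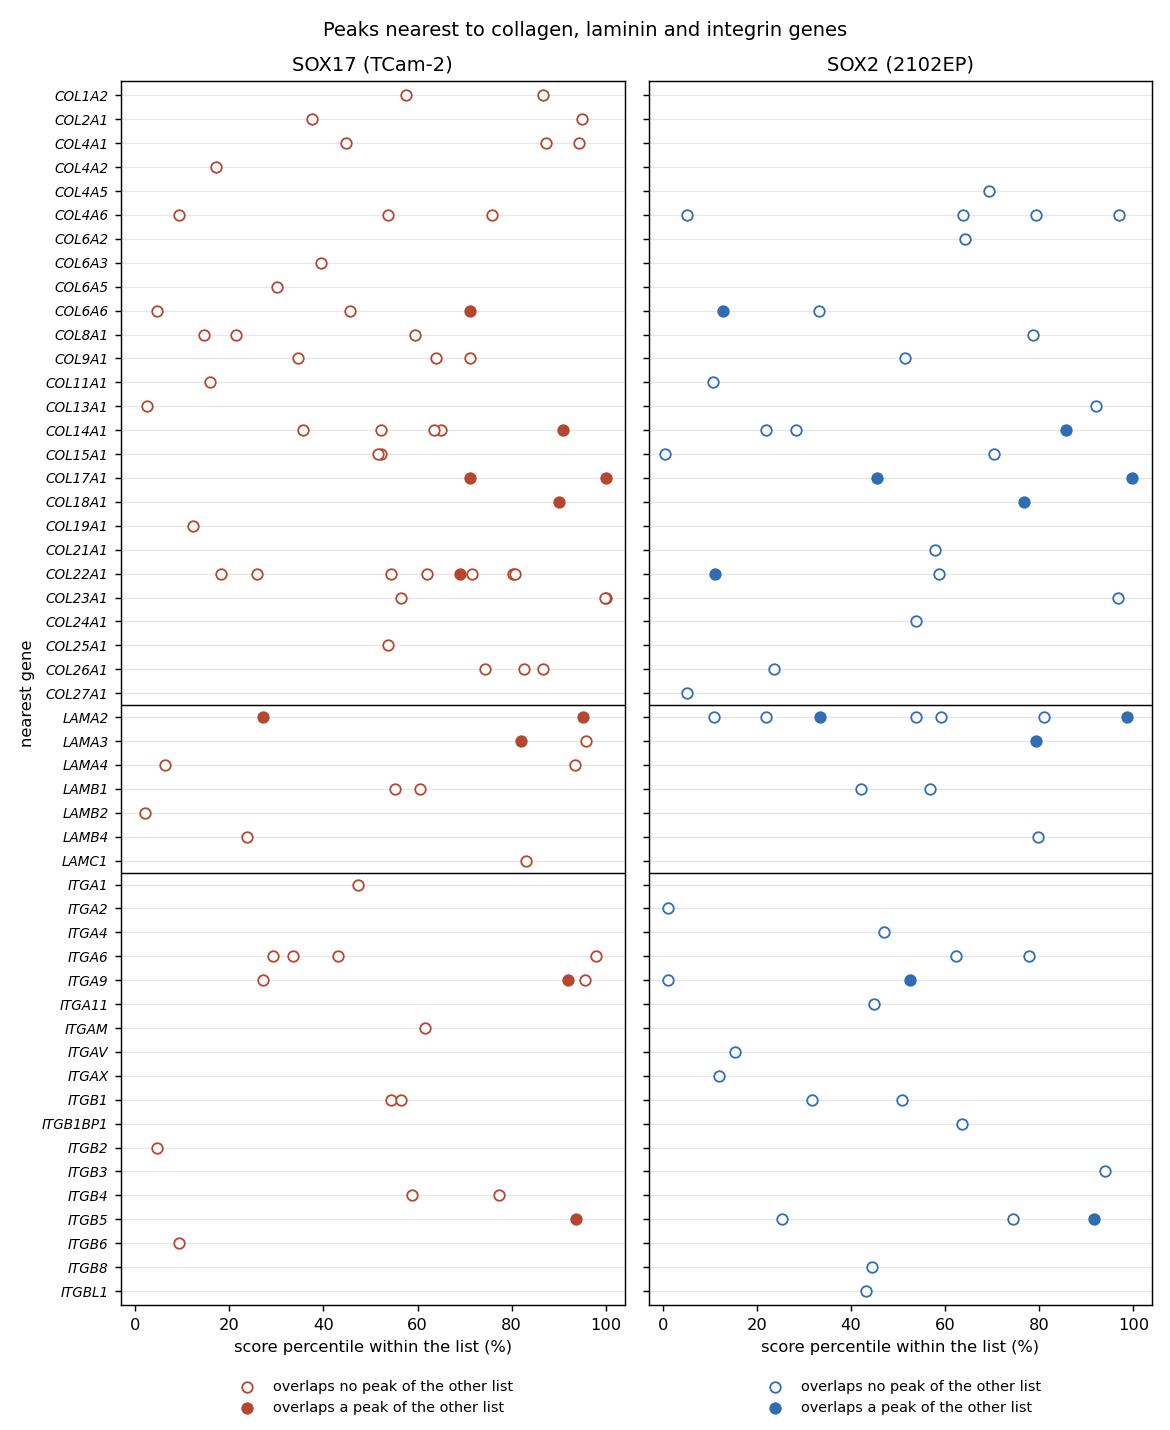
Every SOX17 peak (left, TCam-2) and SOX2 peak (right, 2102EP) nearest to a collagen, laminin or integrin gene, by the percentile of its score within its list (horizontal axis, %). Filled points have at least 1 bp in common with a peak of the other list and open points do not; COL17A1 stands at the right edge of both panels, COL23A1 has a pair of SOX17 points there and no filled one, and COL22A1 (8 SOX17 points) and LAMA2 (7 SOX2 points) have the most in 1 list.

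The highest peaks of both factors lay in the transmembrane collagen gene COL17A1, which encodes the collagen of hemidesmosomes. Its intron 4 held a SOX17 peak at rank 9 of its list (percentile 99.95) and a SOX2 peak at rank 45 (percentile 99.75), with centres 9 bp apart and 8975 bp from the TSS by the SOX17 peak. No repeat is annotated there, and the printed sequence holds 2 SOX sites. A second shared region in intron 9, in the retroviral element HERVP71A-int, stood at percentile 71.1 for SOX17 and 45.5 for SOX2. The next gene in the SOX17 list was COL23A1, also a transmembrane collagen, with peaks in intron 2 (percentile 99.95, rank 10) and intron 1 (99.89, rank 21). Unlike the COL17A1 peak, the rank 10 peak lay in a repeat, the LINE element L1MB3, and had no SOX site within 100 bp of its centre. The rank 21 peak lay in no annotated repeat and had 1 SOX site in that window. COL23A1 had 1 SOX2 peak, at percentile 96.8 in intron 2, whose centre lay 8486 bp from the closest SOX17 centre. Both factors thus had high peaks in COL23A1, but at separate places. COL13A1, of the same group, had 1 peak in each list, at percentile 2.54 for SOX17 and 92.0 for SOX2, 146076 bp apart.

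Collagen IV genes lie in head-to-head pairs. COL4A1 and COL4A2, which encode the chains found in nearly all basement membranes, were named by SOX17 alone: COL4A1 had peaks at percentiles 94.2, 87.4 and 44.8, all in an intron, and COL4A2 had 1 at percentile 17.1, 1376 bp from its TSS. COL4A6 and COL4A5 form the X-linked pair. COL4A6 had SOX17 peaks at percentiles 75.9, 53.7 and 9.24 and SOX2 peaks at 96.9, 79.4, 63.8 and 5.05, all in intron 2 and none in common, although the closest centres were 163 bp apart in an LTR5_Hs element. COL4A5 had a single SOX2 peak at percentile 69.4. The absence of SOX2 from the COL4A1 and COL4A2 pair held only by nearest TSS, since both gene bodies contained SOX2 peaks given to other genes, at percentiles 24.5 and 41.3 in COL4A1 and 57.3 in COL4A2.

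Of the fibrillar collagens, COL2A1, the collagen of cartilage, had a SOX17 peak at percentile 94.99, 17394 bp upstream, and another at 37.6 in intron 1, and no SOX2 peak. COL2A1 lies on chromosome 12, whose SOX17 peaks had a median score of 34.7, against 26.7 over the list, and its best percentile was 89.97 within that chromosome. COL14A1 and COL22A1, fibril-associated collagens, had the most peaks among collagens: 5 and 3 for COL14A1 and 8 and 2 for COL22A1, SOX17 count first. The COL22A1 peaks were mid-range, the SOX17 ones between percentiles 18.3 and 80.7 and the SOX2 ones at 11.03 and 58.8. COL15A1 had 2 peaks in each list, at percentiles 52.3 and 51.5 for SOX17 and 70.4 and 0.554 for SOX2, none shared. COL6A6, of the collagen VI group, had 3 SOX17 peaks (percentiles 71.1, 45.7 and 4.63) and 2 SOX2 peaks (33.1 and 12.8).

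LAMA2, the laminin alpha chain of muscle and nerve and the longest of the 51 genes, had 2 SOX17 peaks, at percentiles 95.2 and 27.1, and 7 SOX2 peaks, at 98.7, 81.1, 59.0, 53.9, 33.5, 22.0 and 10.9. Both of these SOX17 peaks lay on SOX2 peaks. Other peaks inside LAMA2 were given to ARHGAP18, at percentiles 79.6, 4.63 and 3.87 for SOX17 and 84.9, 28.4 and 12.3 for SOX2. Of these SOX17 peaks, the ones at 79.6 and 4.63 were shared and the one at 3.87 was not. By gene body LAMA2 held 4 SOX17 and 7 SOX2 peaks. The region high in both lists was intergenic, 138981 bp upstream of the TSS, and its printed sequence holds a SOX site and an OCT site. LAMA3, the alpha chain of epithelial laminin, had SOX17 peaks at percentiles 95.8 and 82.0 and a SOX2 peak at 79.2 that coincided with the lower of these. A higher SOX2 peak inside LAMA3, at percentile 94.9 in intron 71, was given to TTC39C. LAMA4, an alpha chain of vessel walls, had SOX17 peaks at 93.4 and 6.23 and no SOX2 peak by nearest TSS. Inside LAMA4 lay 2 SOX2 peaks given to another gene, at percentiles 26.6 and 27.4. LAMB1, the beta chain of most laminins, had 2 peaks in each list, at percentiles 60.5 and 55.1 for SOX17 and 56.8 and 42.2 for SOX2. In intron 4 of LAMB1 the centres of the SOX17 and SOX2 peaks were 316 bp apart without overlap. LAMA1 and LAMA5, alpha chains of early embryonic and adult basement membranes, were named by neither list.

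ITGA6, the alpha subunit of laminin receptors, had 4 SOX17 peaks, at percentiles 97.9, 43.1, 33.6 and 29.2, and 2 SOX2 peaks, at 77.7 and 62.4. None coincided, and the closest centres were 7019 bp apart. The highest SOX17 peak lay 118784 bp upstream of ITGA6, in intergenic sequence. ITGA9, which pairs with ITGB1 and binds tenascin, had SOX17 peaks at 95.6, 92.0 and 27.1 and SOX2 peaks at 52.5 and 1.02. The peak of intron 4 was shared, with centres 2 bp apart, and stood higher among SOX17 peaks (92.0) than among SOX2 peaks (52.5).

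The beta subunits ITGB3 and ITGB5 both pair with ITGAV in vitronectin receptors. Each had a high peak close to an annotated TSS in a MER4 element, the long terminal repeat (LTR) of an endogenous retrovirus. At ITGB5 this region was shared, at percentiles 93.7 for SOX17 and 91.6 for SOX2. By the SOX17 peak it lay 1520 bp upstream of the TSS used, but inside the gene, in intron 1 of an ITGB5 transcript. At ITGB3 a SOX2 peak stood at percentile 93.9, 2245 bp upstream, and SOX17 had no peak. MER4 elements held 4 of the 77 SOX17 and 4 of the 56 SOX2 peaks of these genes, against 379 of 17507 and 586 of 17795 peaks in the whole lists. These counts are small and the difference was not tested. ITGB1, the beta subunit that most alpha subunits join, had the only peak annotated as a promoter: a SOX17 peak 106 bp upstream of the TSS at percentile 54.4. Its other SOX17 peak stood at 56.5, and its SOX2 peaks, at 50.8 and 31.8, were more than 100000 bp away from the TSS.

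Peaks near a start site were rare in general. Within 1000 bp of a TSS lay 3 of 77 SOX17 peaks (3.90%, against 4.57% of the whole list) and 1 of 56 SOX2 peaks (1.79% against 3.57%). Besides the ITGB1 promoter peak and an intronic one 625 bp into ITGA6, there was a SOX17 peak by COL1A2, a chain of type I collagen, at percentile 57.6. The deposited annotation places it in the 5' UTR, 103 bp from the TSS, but by GENCODE 44 its centre lay outside the gene. The SOX2 peak lay in the 5' UTR of ITGB8, at percentile 44.4 and 326 bp from its TSS. COL1A2 and ITGB8 are named outside the rule for named genes, after their values were seen.

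**Figure D3:**
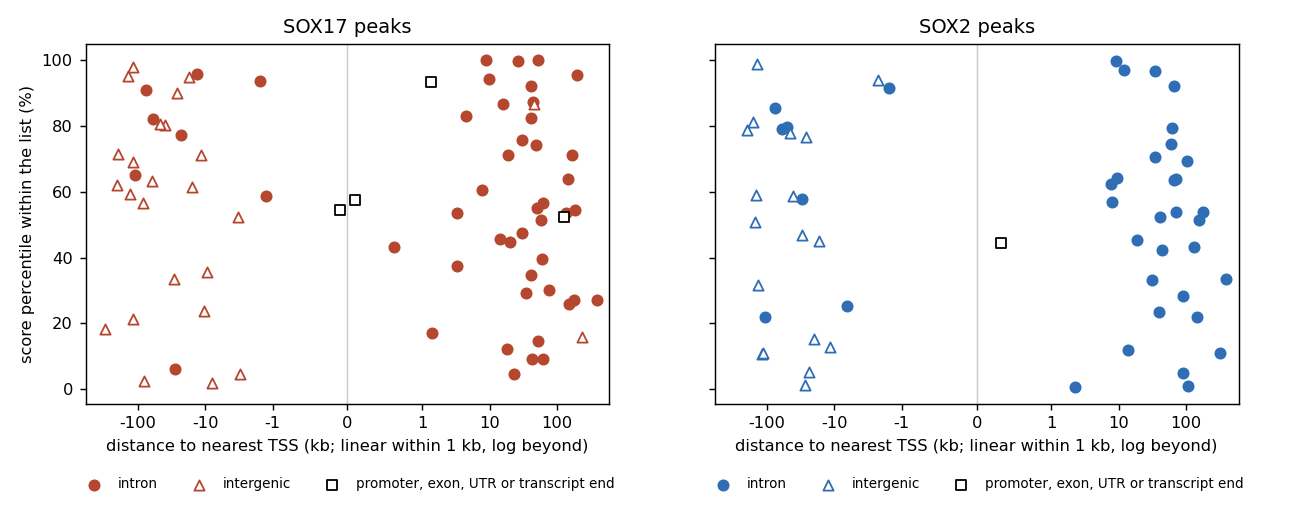
Score percentile within the list (vertical axis, %) of each SOX17 peak (left) and SOX2 peak (right) against its distance from the nearest TSS in kb, negative upstream; the axis is linear within 1 kb and logarithmic beyond. Circles are intronic, triangles intergenic and squares promoter, exon, UTR or transcript end peaks; few points lie within 1 kb of the start (3 SOX17 and 1 SOX2), and peaks at or above percentile 90 lie both near to and beyond 100 kb from it.

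Introns held 48 of the 77 SOX17 peaks (62.3%, 51.2 to 72.3%), against 44.03% of the whole list, and 37 of the 56 SOX2 peaks (66.1%, 53.0 to 77.1%), against 43.5%. Over genes of 50000 bp or more the intronic shares were 63.8% of SOX17 and 64.2% of SOX2 peaks, against 58.2% and 57.0% of peaks by all such genes. The part of gene length in the intronic share was not tested. Annotated repeats held 31.2% of SOX17 peaks (21.9 to 42.2%), against 43.1% of the whole list, and 35.7% of SOX2 peaks (24.5 to 48.8%), against 41.4%. LTR elements were the most frequent class, with 17 of the 24 SOX17 and 10 of the 20 SOX2 peaks in repeats, as they were in both whole lists. They held 22.1% of the members' SOX17 peaks, against 22.6% of the whole list, and 17.9% of their SOX2 peaks, against 25.5%.

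**Figure D4:**
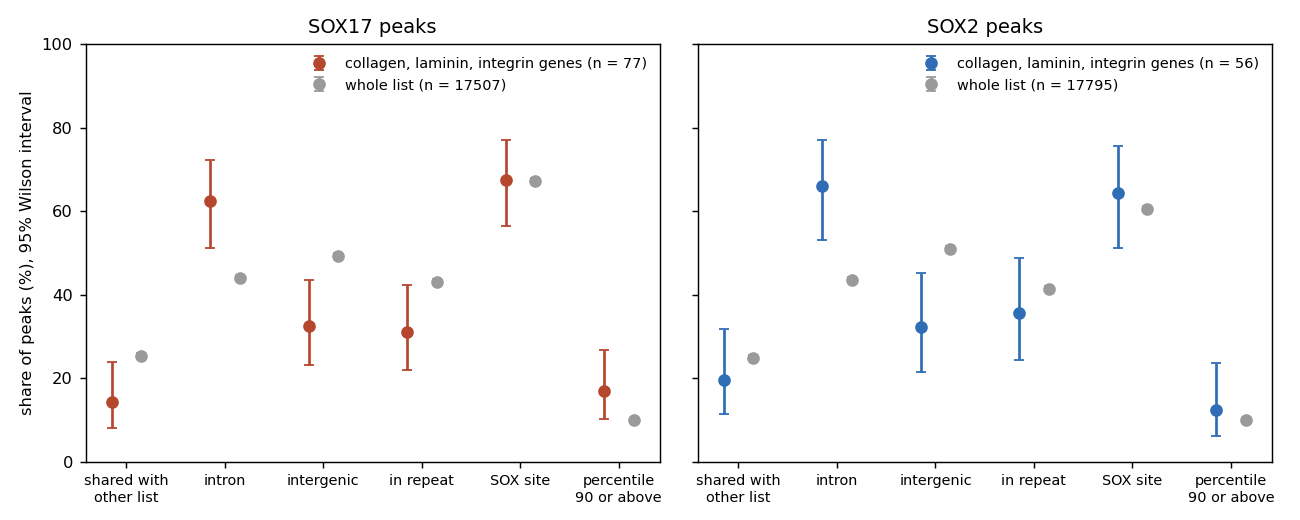
Share (%) of SOX17 peaks (left) and SOX2 peaks (right) that overlap the other list, lie in introns, intergenic sequence or repeats, hold a SOX site or stand at or above percentile 90. Coloured points are peaks of the collagen, laminin and integrin genes (77 and 56), grey points the whole lists, and lines 95% Wilson intervals; intronic shares are higher than in the whole lists (62.3% against 44.03% for SOX17) and SOX site shares are near them (67.5% against 67.1%).

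A region was counted as shared where a SOX17 and a SOX2 peak had at least 1 bp in common. Of the members' peaks 11 regions were shared, at 9 genes (10.5% of the 86, against 12.1% of all protein-coding genes). They were 14.3% of the members' SOX17 peaks (8.17 to 23.8%), against 25.3% of the whole list, and 19.6% of their SOX2 peaks (11.3 to 31.8%), against 24.9%. Among genes of 50000 bp or more the shares were 15.9% for SOX17 and 20.8% for SOX2, against 25.9% and 25.7%. Counted instead over all peaks lying inside the member genes, whatever their nearest TSS, 14 of 73 SOX17 peaks (19.2%, 11.8 to 29.7%) and 14 of 55 SOX2 peaks (25.5%, 15.8 to 38.3%) were shared, against 24.1% of SOX17 and 24.6% of SOX2 peaks inside any protein-coding gene.

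The 11 shared regions ran from percentile 99.95 to 27.1 for SOX17 and from 99.75 to 11.03 for SOX2. At or above percentile 90 of both lists stood 3, at COL17A1, LAMA2 and ITGB5. In 9 of the 11 the SOX17 percentile was the higher one, against 2096 of the 4426 regions shared over the whole lists (47.4%), and LAMA2 held both exceptions. The 11 are few, and this difference was not tested. It was counted by nearest TSS. Other shared regions lay inside these genes by GENCODE 44 but were given to other genes. Among them SOX2 was higher in LAMB1 (84.8 for SOX17, 97.5 for SOX2), LAMB3 (31.3, 72.6) and ITGB3BP (93.0, 98.2). SOX2 was also higher in LAMA2 (79.6, 84.9 and 4.63, 28.4). SOX17 was higher in COL26A1 (93.8, 89.1) and ITGA9 (98.1, 94.0). The widest gaps were at COL6A6 (71.1 for SOX17 and 12.8 for SOX2) and COL22A1 (69.1 and 11.03), both in LINE elements. COL14A1 stood at 91.0 for SOX17 and 85.6 for SOX2, in an intron of its neighbour DEPTOR, and COL18A1, whose protein gives rise to endostatin, at 89.99 and 76.7, 26686 bp upstream. Centres of shared peaks were 2 to 86 bp apart, with a median of 15 bp. The other 12 genes named by both lists had no shared region, and their closest centres were 163 to 353119 bp apart (median 7752.5 bp). Of all protein-coding genes 4192 were named by both lists (20.9%, against 24.4% of the 86) and 2420 were nearest to a shared region (12.1%, against 10.5% of the 86). Genes named by both lists without a shared region were not counted over all protein-coding genes.

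**Figure D5:**
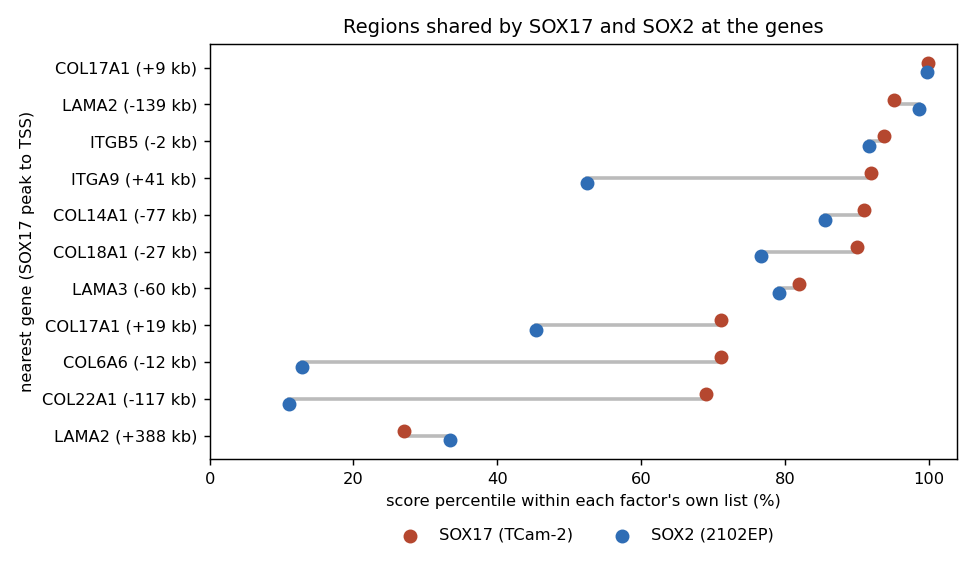
The 11 regions shared by SOX17 and SOX2, named by nearest gene and the distance of the SOX17 peak from its TSS in kb, with the score percentile (horizontal axis, %) of the SOX17 peak in red and of the SOX2 peak in blue. Points of COL17A1, LAMA2 and ITGB5 lie above 90 in both colours. The red point is the higher one in 9 of the 11, against 47.4% of all shared regions. Shared regions inside these genes but given to other genes, several of them higher for SOX2, are not drawn.

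A SOX site within 100 bp of the peak centre was found in 52 of the 77 SOX17 peaks (67.5%), against 67.1% of the whole list, and in 36 of the 56 SOX2 peaks (64.3%), against 60.5%. In flanking windows of the same size, centred 2000 bp away, the members' shares were 23.4% for SOX17 and 22.3% for SOX2. An OCT site with no mismatch stood in 8 SOX17 peaks (10.4%, 5.36 to 19.2%), against 11.5% of the whole list, and in 7 SOX2 peaks (12.5%, 6.19 to 23.6%), against 15.1%. In the flanking windows OCT sites were found at 1.30% for SOX17 and 1.79% for SOX2. The shares of SOX and OCT sites were thus near those of the whole lists, but the intervals are wide (SOX site 56.5 to 76.9% for SOX17 and 51.2 to 75.5% for SOX2). An AP-2 site (GCCNNNGGC) stood in 12.99% of SOX17 (7.21 to 22.3%) and 10.7% of SOX2 peaks (5.00 to 21.5%), against 11.9% and 6.42% of the lists. A match shows only that the letters are there.

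Composite sites were a SOX site followed by an OCT site, the OCT part allowed 1 mismatch, with no base between them (compressed) or with 1 (canonical). Compressed sites were in 3 of the 77 SOX17 peaks (3.90%, 1.33 to 10.8%), against 2.77% of the whole list, and in none of the 56 SOX2 peaks, against 0.0787% of that list. A count of 0 of 56, taken as up to 3 counts, allows a share of up to 5.36%, and the Wilson interval ends at 6.42%. Canonical sites were in none of either, which by the 3 counts allows up to 3.90% for SOX17 and 5.36% for SOX2 (Wilson upper ends 4.75% and 6.42%), against 0.366% of the SOX17 and 1.66% of the SOX2 list. Each of the compressed sites has 1 mismatch in its OCT part. COL4A1 and COL6A6 carry the same 14 bases, CTTTGTATGTTAAT, and LAMA3 carries CTTTGTGTGCTAAT, identical to them at 12 positions.

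The COL4A1 and LAMA3 sites, at chr13:110297251-110297264 and chr18:23859949-23859962, lie in copies of MER21, an ERVL LTR, and their peaks stood at percentiles 94.2 and 95.8. Aligned on the site with no gap, 14 of the 20 bases after the site are the same in both, while 3 of the 20 before it are. A count with no gap misses likeness that is shifted by a few bases. The printed sequences have such a shifted run before the site (cttggaatccgaagtg in COL4A1, cttggactctgatgtg in LAMA3), so the 3 do not show that the copies differ there. The COL6A6 site, at chr3:130557241-130557254, lies in no annotated repeat and its peak stood at percentile 4.63. Over the whole SOX17 list 13 of 272 peaks in MER21 elements held a compressed site (4.78%), and none of 178 SOX2 peaks in them did. The other SOX17 peak of these genes in a MER21 copy, given to COL9A1, held none.

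SOX17 and SOX2 peaks of these genes were compared by two-sided Fisher's exact tests, adjusted by Benjamini-Hochberg over the 6 properties planned. Peaks of 1 merged list stood in for replicates and the 11 shared regions entered on both sides, so that each p covers counting over peaks only and not the spread between samples. For the SOX site the odds ratio was 1.16 (0.564 to 2.37; exact p = 0.714, adjusted p = 1), for introns 0.855 (0.419 to 1.74; exact p = 0.717, adjusted p = 1) and for repeats 0.815 (0.396 to 1.68; exact p = 0.709, adjusted p = 1). The intervals are wide, so that these 3 tests do not show the factors to be alike here. The other 3 properties had too few peaks to pass 0.05 however they fell, and are given as counts alone. The smallest p possible was 0.0723 for the compressed site (3 of 77 SOX17 and 0 of 56 SOX2 peaks), 0.421 for promoters (1 and 0) and 1 for the canonical site (0 and 0), by the same exact test.

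Nearest TSS and gene body gave different pictures for several genes. By GENCODE 44, 49 of the 77 SOX17 peaks and 33 of the 56 SOX2 peaks lay inside the gene they were given to, and 6 of each lay in an intron of another gene. Conversely, 24 SOX17 and 22 SOX2 peaks inside a member gene were given to another gene. In LAMB1 a shared region in intron 27, at percentile 84.8 for SOX17 and 97.5 for SOX2, was given to DLD. In ITGA9 a shared region in intron 18, at 98.1 for SOX17 and 94.0 for SOX2, was given to ITGA9-AS1. Both were higher than every peak by which these genes were named, and in COL26A1 a shared intronic region at 93.8 and 89.1, SOX17 first, went to LINC01007. LAMA1 had a SOX17 peak at percentile 26.0 in intron 18, given to LOC101927188. ITGAV, named by SOX2 alone, held a SOX17 peak at percentile 80.0 given to FAM171B. Composite sites not counted above also lay in such peaks. A SOX17 peak in LAMC3, at percentile 26.0 and given to AIF1L, held a compressed site. A SOX2 peak in ITGBL1, at percentile 25.8 and given to FGF14, held a canonical site. In all, 9 of the 35 genes without a peak by nearest TSS had one inside them, all 9 of SOX17 and 2 also of SOX2 (ITGB3BP and LAMB3). Of the 16 genes named by SOX17 alone, 5 had a SOX2 peak inside, and of the 14 named by SOX2 alone, 2 had a SOX17 peak inside. Such counts were not made over all protein-coding genes, so they have no background here.

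Genes that work with these proteins are given as counts beside the same backgrounds, 33.5% for SOX17 and 31.5% for SOX2. Of 15 other matrix proteins 9 had a SOX17 peak and 9 a SOX2 peak, the same 9 in both. The basement membrane gene SPARC had the highest SOX17 peak (percentile 91.7, with 48.5 for SOX2), and FBLN2 the highest SOX2 peak (95.6, with 10.2 for SOX17). FN1, which encodes fibronectin, had none. Of 16 genes for collagen modifying enzymes and the collagen chaperone 3 had a SOX17 peak and 4 a SOX2 peak, and SERPINH1, the chaperone gene, was in both. PLOD1, a lysyl hydroxylase gene, had a SOX17 peak at percentile 99.3 and none of SOX2. Of 17 integrin adaptor and kinase genes 11 had a SOX17 peak and 11 a SOX2 peak, with 9 in both. FERMT1, the gene of a kindlin that activates integrins, had its best SOX17 peak at percentile 94.6 and its SOX2 peak at 32.3, and PTK2, the focal adhesion kinase gene, stood at 88.3 and 32.2. Of 8 other collagen and laminin receptors 3 had a SOX17 peak and 4 a SOX2 peak. Gene length was not matched in these counts.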

How the data were processed

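Chromatin of 12 libraries was fixed with a protein crosslinker and then formaldehyde and cut enzymatically, per the labels' protocols. Per the series' design text, CLC Genomics Workbench 12 mapped the reads to hg38 and HOMER was used for the analysis. Not given in the sources used here are the peak calling settings and the use of input. The authors deposited merged peaks with a score whose scale is not stated, so scores were used only as ranks within a list, and the distance to the TSS in bp, annotation and nearest gene of each peak (other deposited columns), per the file headers. A site called in single libraries only may be missing from the merged lists. In each list 2 lines were emptied before this work.

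Names were matched to RefSeq protein-coding genes. Peaks were set against gene bodies of GENCODE 44 on hg38, whose chromosome ends no peak passed; the deposited distance lay within 1000 bp of that to a GENCODE TSS of the gene for 96.1% of the members' SOX17 and 96.4% of their SOX2 peaks. Motifs were searched on both strands of hg38 within 100 bp of peak centres; OCT sites overlap composite sites. Odds ratios have 0.5 added to each cell. Python 3.11.15, pandas 2.3.3, numpy 2.4.6 and scipy 1.17.1 were used, and the steps were tested on simulated data. Members and gene lists were chosen with earlier results of these data known. Named genes were the 8 highest per list, the 8 with most peaks and 5 with most shared regions, those with shared regions at or above percentile 90 of both lists, with promoter peaks, with peaks at or above 90 in 1 list alone or with composite sites, and 13 listed genes; others are named where a count is small. A comparison of ChIP with input was not made, since the lists hold no values per library.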

Additional observations from a re-analysis of the deposited data

How the results depend on the processing

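With peaks limited to 50000 bp from the TSS, the genes with a SOX2 peak fell to 22 (35 at any distance) and those with peaks of both lists to 12 (21 at any distance), while those with a SOX17 peak numbered 30. Of the other alternatives, 11 belong to the 3 tests that could not pass and say nothing about stability; the remaining 40 over 8 results kept counts within 1.5 times, shares within their intervals and tests on the same side of the threshold; these were wider distance limits, gene bodies, higher scores, subunits alone, other overlap limits, a narrower motif window, unshared peaks alone and, added after seeing the data, peaks outside repeats, peaks inside genes and no chromosomes 12 and 20. These limits are wide. By gene bodies extended by 5000 bp, 44 genes had a SOX17 peak, 31 a SOX2 peak and 22 both. By nearest TSS these were 37, 35 and 21. Gene body counts over all protein-coding genes were not made. Whether the wider gap between the lists is particular to these genes is therefore unknown. The shared part of SOX2 peaks inside the genes was 25.5%, against 24.6% inside any protein-coding gene. By nearest TSS it was 19.6%, against 24.9% of the whole list. With no mismatch allowed, no compressed site was left in either list's member peaks. Ranking within chromosomes moved the 72 best percentiles by a median of 1.87 points and 2 by more than 10, COL4A2 most (to 32.8 from 17.1 for SOX17). No paired analysis was possible because replicates were merged before deposit, and none could be left out. Depth limits all counts, and its effect was not tested.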
